A study of Mus musculus with 14 samples.

Results

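The genes described here are 7 receptors through which natural killer (NK) cells read their surroundings: Klrc1, Klrd1, Klrk1, Klre1, Klrb1c, Klrg1 and Ncr1. They were chosen by name from the 51789 genes of a deposited count table, and all 7 were found in it. The table holds 14 libraries of bulk tumour RNA from mice, from a study of ACSS2 inhibitors in triple negative breast cancer. ACSS2 is an enzyme that makes acetyl-CoA from acetate, and ACSS2i is the label for its inhibitor. The strain labelled "NGS mouse" gave 3 vehicle and 3 ACSS2i libraries. The strain labelled "C57BI/6 mouse", written C57BI6 here as in the sample titles, gave 4 vehicle and 4 ACSS2i libraries. The tumour cells, the inhibitor's name, its dose, the length of treatment and the animals' ages are not given in the sources used here, and no label spells out NGS. The series' design line names Bmal1 status, which no sample label assigns. The labels do not say whether replicates are separate animals, so p-values measure only the spread between these libraries.

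NK cells are lymphocytes that kill target cells by weighing signals from activating and inhibitory surface receptors. Klrk1 encodes NKG2D, an activating receptor for stress-induced ligands of the Raet1 and H60 families. Ncr1 encodes NKp46, an activating receptor that marks NK cells and some innate lymphoid cells. Klrd1 encodes CD94, which pairs with NKG2A, the inhibitory chain encoded by Klrc1, to read Qa-1, the product of H2-T23. Klre1 encodes another lectin-like receptor chain, Klrb1c encodes NK1.1, and Klrg1 encodes an inhibitory receptor for cadherins. Activated T cells can also carry the products of Klrc1, Klrd1, Klrk1 and Klrg1.

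Of the 7 genes, 5 lie in the natural killer gene complex of mouse chromosome 6 (mm10, GENCODE), and all are protein-coding. Klrb1c (ENSMUSG00000030325) lies at chr6:128778485-128789215 on the minus strand. Klre1 (ENSMUSG00000050241, chr6:129577905-129585827) and Klrd1 (ENSMUSG00000030165, chr6:129591782-129598775) are on the plus strand, and Klrk1 (ENSMUSG00000030149, chr6:129610323-129623864) and Klrc1 (ENSMUSG00000030167, chr6:129666015-129678973) on the minus strand. Klrg1 (ENSMUSG00000030114, chr6:122270596-122282882, minus strand) is on the same chromosome outside that block. Ncr1 (ENSMUSG00000062524, chr7:4337724-4345164, plus strand) is on another chromosome. Libraries of this kind read the 3' ends of transcripts. In the last 300 bases of the annotated transcripts, 60.9% of the 50-base words of Klrc1 also occur in Klrc2 or Klrc3, and 11.6% of those of Klrb1c occur in Klrb1a, Klrb1b, Klrb1-ps1 or Gm44511. Gm44511 also overlaps exons of Klrb1c on the same strand, so the counts of Klrc1 and Klrb1c may hold reads of these relatives. The other 5 genes shared no such word.

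The stretches upstream of the start were read for the 5 genes with a RefSeq promoter entry (GRCm38.p6), to show what these promoters share in sequence. Each sequence is the 250 bases before the RefSeq start, 5′ to 3′ on the gene's strand, with matches to TGTGGT or its reverse complement ACCACA in capitals.
Klrc1: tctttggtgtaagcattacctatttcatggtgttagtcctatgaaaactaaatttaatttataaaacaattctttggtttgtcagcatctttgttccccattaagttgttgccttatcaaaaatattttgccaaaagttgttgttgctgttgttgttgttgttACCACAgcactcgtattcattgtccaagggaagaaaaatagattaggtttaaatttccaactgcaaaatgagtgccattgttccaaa
Klrk1: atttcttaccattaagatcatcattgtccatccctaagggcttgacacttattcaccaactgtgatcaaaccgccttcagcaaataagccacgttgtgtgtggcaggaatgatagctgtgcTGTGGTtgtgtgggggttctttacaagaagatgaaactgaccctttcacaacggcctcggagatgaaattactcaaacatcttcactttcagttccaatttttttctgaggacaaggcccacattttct
Klre1: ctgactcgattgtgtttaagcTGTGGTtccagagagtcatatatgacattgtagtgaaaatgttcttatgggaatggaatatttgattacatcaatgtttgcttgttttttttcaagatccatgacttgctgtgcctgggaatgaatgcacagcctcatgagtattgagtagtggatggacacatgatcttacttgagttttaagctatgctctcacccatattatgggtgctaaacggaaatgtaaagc
Klrb1c: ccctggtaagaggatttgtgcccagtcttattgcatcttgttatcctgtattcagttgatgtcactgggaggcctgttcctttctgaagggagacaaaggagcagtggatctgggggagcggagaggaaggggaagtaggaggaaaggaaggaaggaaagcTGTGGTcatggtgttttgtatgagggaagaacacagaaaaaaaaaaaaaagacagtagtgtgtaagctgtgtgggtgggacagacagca
Ncr1: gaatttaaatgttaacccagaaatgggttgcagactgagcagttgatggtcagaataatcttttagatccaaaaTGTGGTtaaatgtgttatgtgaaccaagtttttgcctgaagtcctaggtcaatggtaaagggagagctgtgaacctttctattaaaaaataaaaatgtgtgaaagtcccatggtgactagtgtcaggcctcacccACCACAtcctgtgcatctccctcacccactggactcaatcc
The Klrc1 stretch lies at chr6:129678974-129679223 on the minus strand. The Klrk1 stretch lies at chr6:129623865-129624114 on the minus strand. The Klre1 stretch lies at chr6:129577963-129578212 on the plus strand. The Klrb1c stretch lies at chr6:128788642-128788891 on the minus strand. The Klre1 and Klrb1c stretches lie inside the GENCODE genes given above, whose annotated starts are further upstream than the RefSeq starts. The Ncr1 stretch lies at chr7:4337465-4337714 on the plus strand. TGTGGT, the core bound by RUNX factors, occurred on either strand in 5 of 5 of these stretches, and in 14.2% of 27025 promoters of the same length. Its first base lay 87 bases before the start in Klrc1, 129 in Klrk1, 229 in Klre1 and 89 in Klrb1c, and Ncr1 had a match at 176 and another at 41. AGGTGT, a T-box half-site, was in 0 of 5 (12% of promoters), and the ETS-type GGAAGT in 1 of 5, Klrb1c (19.9% of promoters). The motifs were chosen with these sequences in view, none overlaps another in the members, and a match is a description of letters, not a binding site.

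Library totals were 4207301 to 4701101 counts in NGS vehicle, 2846161 to 4035025 in NGS ACSS2i, 17645504 to 19198649 in C57BI6 vehicle and 18392953 to 20344809 in C57BI6 ACSS2i. The limit that a count of 0 allows, 3 counts over a group, was 0.226, 0.289, 0.0403 and 0.0387 CPM in that order, where CPM is a gene's count scaled to the library total. Such limits and the intervals below cover counting error only. All 7 receptors passed the filter on low counts, through the C57BI6 libraries. Klre1, Klrg1 and Ncr1 could pass it only with their ACSS2i libraries. Skeletal muscle marker RNA was uneven: the 8 markers summed to 257 CPM or more in C57BI6 vehicle 1, ACSS2i 1 and ACSS2i 3, and to 15.5 CPM or less in the other 5 C57BI6 libraries. The sums were 297, 6279 and 2822 CPM in NGS vehicle and 643, 13.7 and 22.8 CPM in NGS ACSS2i. Skin markers summed to 1282 CPM in NGS vehicle 1 and 439 CPM in NGS ACSS2i 1, against 19.6 to 66.8 CPM in the other NGS libraries and 11.2 to 16.5 CPM in the C57BI6 libraries. By edgeR 7 of 8 skin markers were lower in C57BI6 than in NGS with vehicle and 5 of 8 with ACSS2i. The part of muscle and skin RNA in the NGS and strain results was not tested.

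In C57BI6 tumours, inhibitor-treated libraries held more receptor RNA than vehicle libraries. The 7 receptors summed to 24.1 to 41.9 CPM with ACSS2i and 9.18 to 13.6 CPM with vehicle. Klrc1 was the 1 receptor of 7 past the test (edgeR's quasi-likelihood test, Benjamini-Hochberg adjusted p under 0.05 over 17294 genes), against 0.26% of all genes called higher. DESeq2 called 4 of the 7, limma voom 5, and edgeR 4 with only the C57BI6 libraries in the fit and 3 without the filter on low counts. For 5 of the 7, every ACSS2i library was above every vehicle library, against 7.05% of all genes. The median log2 fold change of the 7 was 1.71, and that of all genes -0.01. Klre1, Klrg1 and Ncr1 passed the filter on low counts only with their ACSS2i libraries, where they are higher. Both comparisons with all genes are thus partly fixed by that filter. In bulk tissue, more cells of a type and more RNA per cell cannot be told apart.

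**Figure D1:**
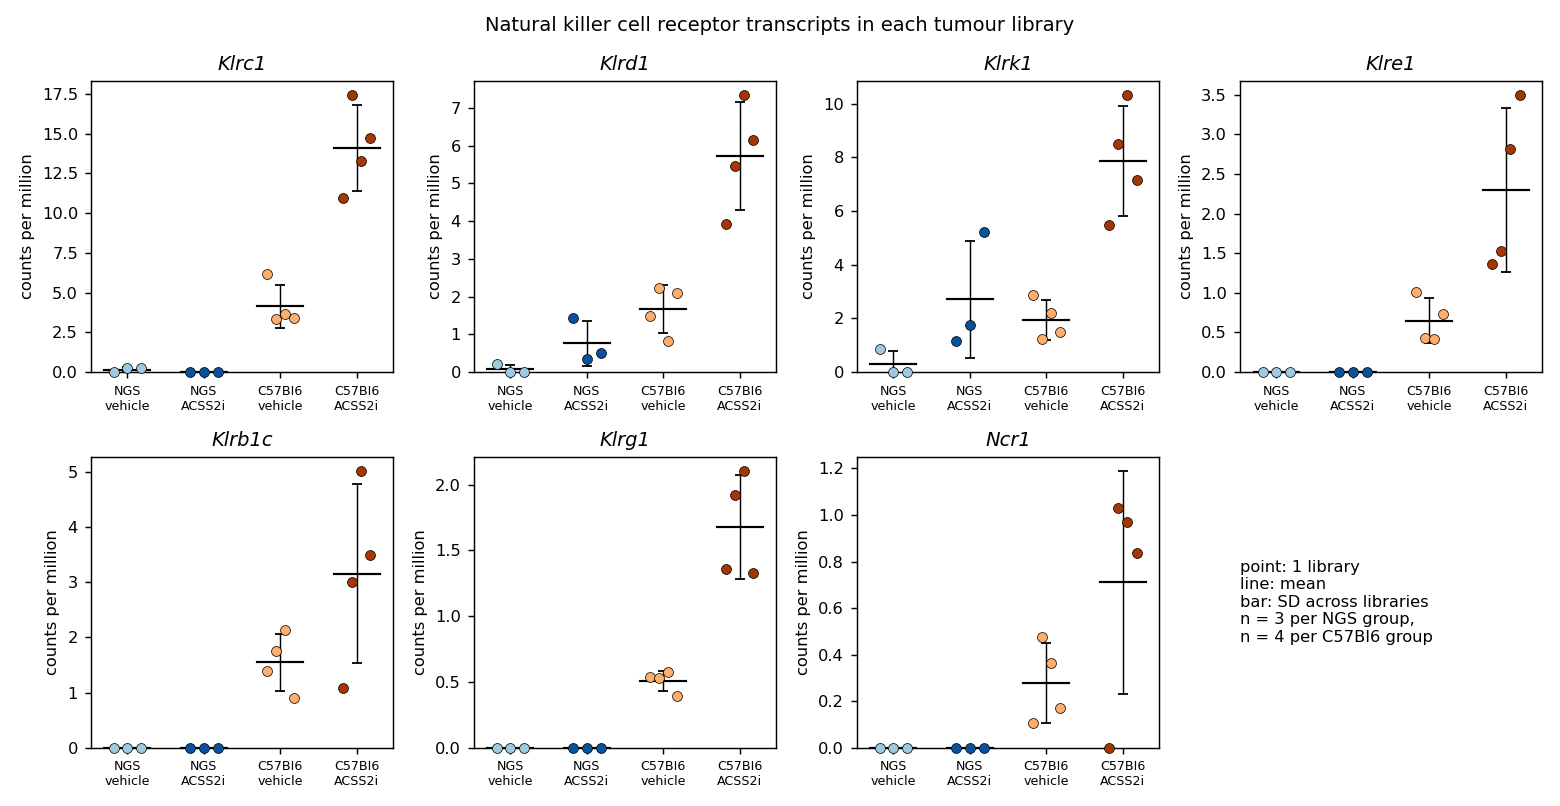
Level of each of the 7 receptors in CPM (linear axis from 0) in every library, by strain and treatment; lines are means and bars the SD (n = 3 per NGS group, n = 4 per C57BI6 group). In C57BI6 tumours the groups do not overlap for 5 receptors, Klrb1c and Ncr1 overlap, and 4 receptors sit at 0 in all 6 NGS libraries.

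Among the inhibitory and paired chains, Klrc1 stood at 6.15, 3.34, 3.65 and 3.40 CPM in the 4 C57BI6 vehicle libraries and at 10.9, 17.4, 13.3 and 14.7 CPM in the 4 ACSS2i libraries. Vehicle 1 was the highest of its group and still below the lowest treated library. The mean was 4.13 ± 1.35 CPM with vehicle and 14.1 ± 2.73 CPM with ACSS2i (SD over 4 libraries). On the log2 scale the difference was 1.71 ± 0.25 (SE), with an edgeR adjusted p of 0.0145. The call was lost without C57BI6 vehicle 2, 3 or 4 or ACSS2i 2 or 4, with edgeR adjusted p from 0.0573 to 0.0797. A replicate block, which takes same-numbered libraries as paired, also ended the call (edgeR adjusted p = 0.102). Without the 3 muscle-rich libraries the log2 fold change was 2.15 (edgeR adjusted p = 0.0388).

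Its partner Klrd1 was at 1.50, 2.22, 0.833 and 2.10 CPM with vehicle and at 3.91, 5.46, 7.34 and 6.16 CPM with ACSS2i. The groups did not overlap, and the log2 fold change was 1.72 ± 0.37 (edgeR adjusted p = 0.0652). It passed the test without NGS ACSS2i 1 or 2, which enter the shared estimate of the spread (edgeR adjusted p = 0.0396 and 0.0395). Klrg1, the cadherin receptor, was at 0.535, 0.530, 0.573 and 0.397 CPM with vehicle and at 1.36, 1.92, 2.11 and 1.33 CPM with ACSS2i. Its vehicle libraries lay close together and below all treated ones, at a log2 fold change of 1.64 ± 0.40 (edgeR adjusted p = 0.156).

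Among the activating receptors, Klrk1 was at 2.89, 1.22, 2.19 and 1.47 CPM with vehicle and at 5.49, 8.50, 10.3 and 7.14 CPM with ACSS2i. The groups did not overlap, and the fitted log2 difference, 1.95 ± 0.44, was the largest of the 7 and did not pass the test (edgeR adjusted p = 0.0883). Ncr1 was at 0.107, 0.477, 0.365 and 0.170 CPM with vehicle and at 0, 1.03, 0.972 and 0.837 CPM with ACSS2i. ACSS2i 1 held no Ncr1 count, so the groups overlapped although the other 3 treated libraries were above all vehicle ones (log2 fold change 1.25 ± 0.87, edgeR adjusted p = 0.855). The whole Ncr1 result rests on 21 vehicle and 56 ACSS2i counts.

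Klrb1c, encoding NK1.1, showed the same single low library. It was at 1.39, 1.75, 2.14 and 0.907 CPM with vehicle and at 1.09, 3.00, 5.02 and 3.50 CPM with ACSS2i (log2 fold change 0.95 ± 0.47, edgeR adjusted p = 0.688). ACSS2i 1 lay within the vehicle range and the other treated libraries above it. Klre1 was at 1.02, 0.424, 0.417 and 0.737 CPM with vehicle and at 1.36, 1.52, 2.81 and 3.50 CPM with ACSS2i. Its groups did not overlap (log2 fold change 1.75 ± 0.47, edgeR adjusted p = 0.216).

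Pooled over libraries, the ratio of ACSS2i to vehicle was 2.03 (95% exact counting interval 1.62 to 2.55) for Klrb1c and 4.04 (3.36 to 4.87) for Klrk1, and the other 5 receptors lay between these ratios. Klrc1 made up 31.7% to 45.3% of the receptor counts in treated libraries and 33.5% to 45.3% in vehicle libraries. The share of Klrc1 among the receptors thus covered nearly the same range with and without inhibitor.

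Leukocyte RNA differed in the same direction. Ptprc, which encodes the pan-leukocyte protein CD45, was at 93.9 to 125 CPM in C57BI6 vehicle and 135 to 210 CPM in C57BI6 ACSS2i (log2 fold change 0.57 ± 0.14, edgeR adjusted p = 0.121). Per 100 Ptprc counts, the receptors summed to 7.33 to 11.4 counts with vehicle and 17.9 to 26.4 with ACSS2i, so the groups remained apart. Klrc1 was at 2.72 to 5.16 per 100 Ptprc counts with vehicle and at 8.09 to 8.53 with ACSS2i. Klrd1 was at 0.849 to 2.37 and 2.60 to 4.64, and Klrk1 at 1.18 to 2.42 and 4.06 to 6.52. Klrg1 was at 0.317 to 0.584 and 0.770 to 1.33. The groups overlapped for the other 3: Klrb1c was at 0.724 to 2.18 and 0.805 to 3.17, Ncr1 at 0.0897 to 0.508 and 0 to 0.614, and Klre1, whose groups did not overlap in CPM, at 0.424 to 0.852 and 0.727 to 2.02.

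**Figure D2:**
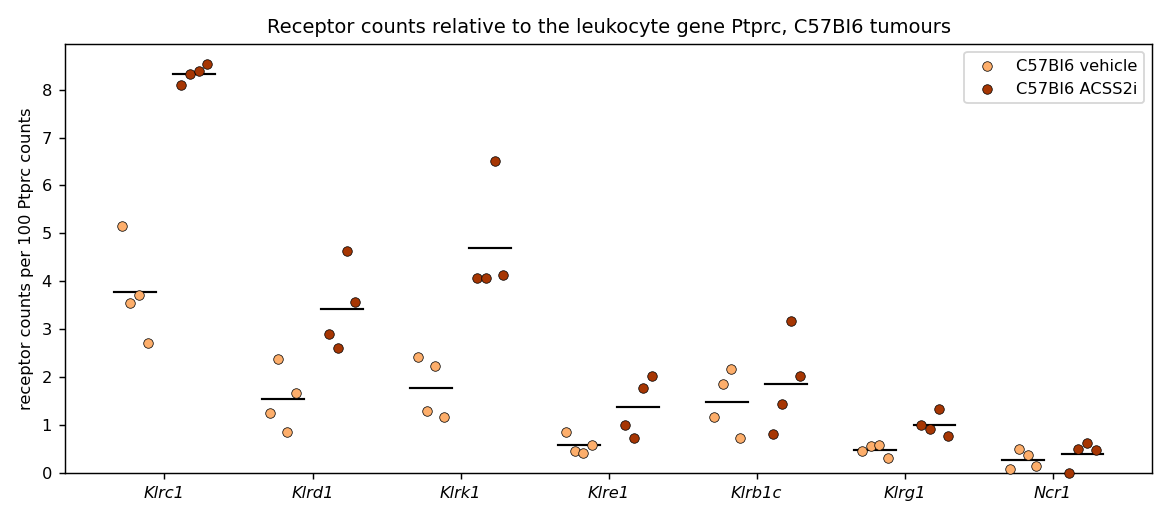
Counts of each receptor per 100 counts of Ptprc (linear axis from 0) in the 4 vehicle and 4 ACSS2i C57BI6 libraries; points are libraries and lines are means. Klrc1 covers 2.72 to 5.16 with vehicle and 8.09 to 8.53 with ACSS2i, while Klre1, Klrb1c and Ncr1 overlap between the groups.

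Markers of T cells stood higher in the same libraries. The 18 T cell markers summed to 21.1 to 41.0 CPM in C57BI6 vehicle and 56.7 to 134 CPM in C57BI6 ACSS2i, with 0 of 18 past the test, all 18 fold changes positive and a median log2 fold change of 1.58. None of the 18 was at 0 throughout either group. Some of them, Cd3g, Cd5, Cd6, Ctla4 and Foxp3 among these, passed the filter on low counts only with their C57BI6 ACSS2i libraries. The filter thus partly fixed these signs. Per 100 T cell marker counts, the receptors summed to 31.2 to 47.1 counts with vehicle and 28.7 to 73.8 with ACSS2i, so these ratios overlapped. The part of T cells in the receptor result was not tested.

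Related receptors were given by a list of 30 names, of which 20 could be tested. In C57BI6 tumours 1 of the 20 rose with the inhibitor and none fell, where 0.26% of all genes were called higher. All 20 fold changes were positive, and their median log2 fold change was 1.28. Cd96, Cd226, Klri2, Klrb1f, Klra6 and Klra7 passed the filter on low counts only with their C57BI6 ACSS2i libraries, so the filter partly fixed these signs. The gene that rose was Fcgr4, an activating receptor for antibody carried by macrophages and neutrophils, from 17.7 ± 5.68 to 44.7 ± 8.30 CPM (log2 fold change 1.28 ± 0.25, edgeR adjusted p = 0.0499). Cd96, a receptor for the poliovirus receptor family, had a log2 fold change of 2.17 ± 0.41 (edgeR adjusted p = 0.0649). Klrc2, the activating relative of Klrc1, had 1.50 ± 0.33 (edgeR adjusted p = 0.113), and Klrb1f 2.29 ± 0.63 (edgeR adjusted p = 0.205).

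Adapters carry the receptors' signal. Of 18 tested adapter and signalling genes 0 passed the test by edgeR, with a median log2 fold change of 0.38. Ptpn6, the phosphatase SHP-1 recruited by inhibitory receptors, had the smallest p (log2 fold change 0.53 ± 0.12, edgeR adjusted p = 0.0809), and the kinase gene Syk followed (0.40 ± 0.10, edgeR adjusted p = 0.106). Of 19 tested ligand genes 0 passed by edgeR, with a median log2 fold change of 0.17. Cfp, encoding properdin, a ligand of NKp46, was at 0.73 ± 0.17 (edgeR adjusted p = 0.1), the class I gene H2-K1 at 0.67 ± 0.17 (edgeR adjusted p = 0.144) and Cdh2, a cadherin gene, at -0.60 ± 0.21 (edgeR adjusted p = 0.363). Of 14 transcription factor genes 0 passed by edgeR; Tbx21, encoding T-bet, was at 1.77 ± 0.47 (edgeR adjusted p = 0.215).

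**Figure D3:**
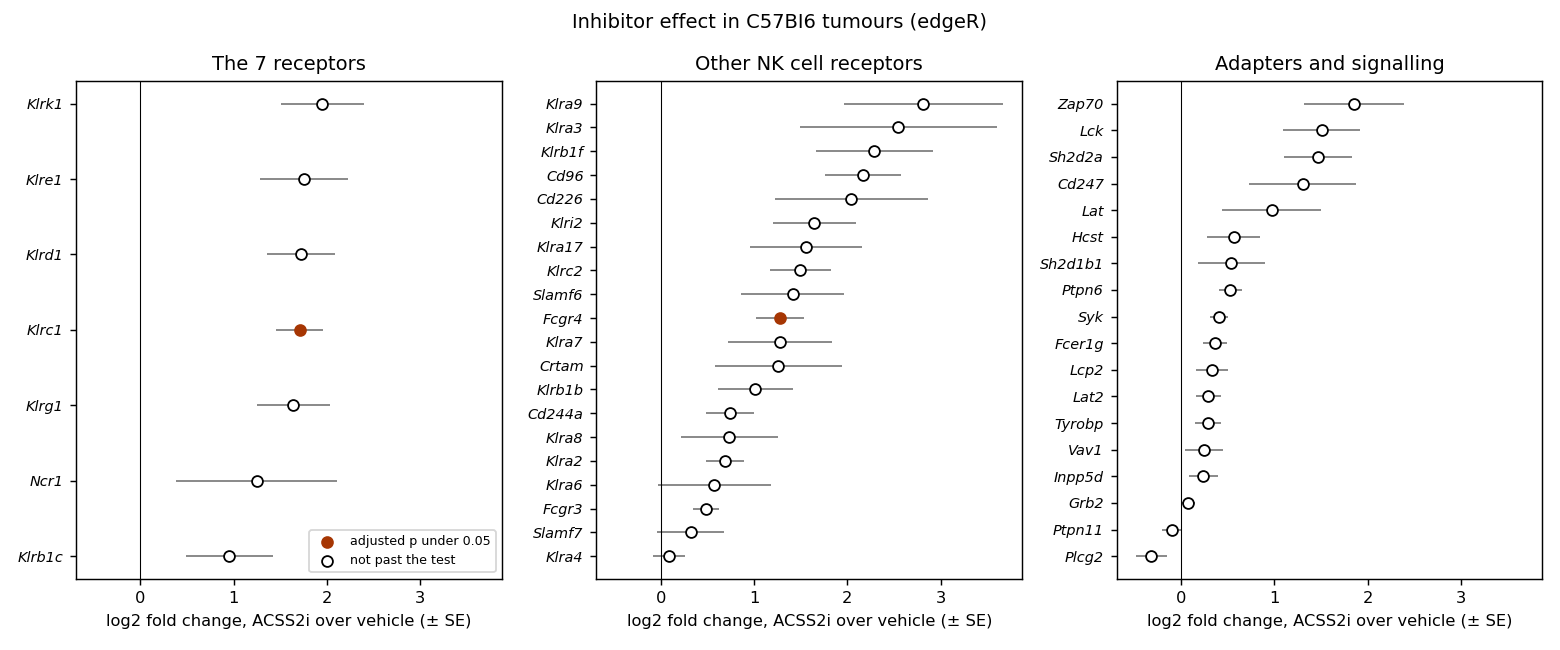
Log2 fold change of ACSS2i over vehicle with its SE in C57BI6 tumours. The genes are the 7 receptors, 20 other listed receptor genes and 18 adapter and signalling genes, and filled points passed the edgeR test. Klrc1 and Fcgr4 are the filled points, and all receptor genes in the left and middle panels lie above 0. Some of these genes passed the filter on low counts only with their ACSS2i libraries.

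Effector genes of killer lymphocytes held more calls. Of 14 tested, 5 rose and 0 fell, where 0.26% of all genes were called higher, and the median log2 fold change was 1.58. Fasl, which was tested, passed the filter on low counts only with its C57BI6 ACSS2i libraries. Ccl5, a chemokine gene, rose by 1.96 ± 0.26 on the log2 scale (edgeR adjusted p = 0.00344), and the granzyme gene Gzmb by 2.20 ± 0.31 (edgeR adjusted p = 0.019). The others were Ctsw, Serpinb6b and Gzmc, at edgeR adjusted p from 0.0225 to 0.0429. The chemokine genes Ccl3 and Ccl4 had negative fold changes that did not pass: Ccl3 was at 10.2 ± 2.90 CPM with vehicle and 4.02 ± 1.13 CPM with ACSS2i (log2 fold change -1.40 ± 0.39, edgeR adjusted p = 0.18, no overlap), and Ccl4 at 12.7 ± 6.45 and 8.01 ± 2.75 CPM (edgeR adjusted p = 0.631). Of 17 cytokine and cytokine receptor genes 2 rose, against the same 0.26% of all genes. Both encode subunits of the receptor for the NK growth factors IL-2 and IL-15: Il2rb (1.37 ± 0.24, edgeR adjusted p = 0.0297) and Il2rg (1.19 ± 0.22, edgeR adjusted p = 0.0349).

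Across chromosome 6 from Klrb1c to the last Klra gene there are 40 annotated protein-coding genes, 25 of them tested. In C57BI6 tumours the 5 members there had a median log2 fold change of 1.72. The other Klr genes had a median of 1.39, with 12 of 12 positive, and the genes not named Klr a median of 0.41, with 6 of 8 positive. Of the other Klr genes, Klri2, Klrb1f, Klra6 and Klra7 passed the filter on low counts only with their C57BI6 ACSS2i libraries. Klra4, an activating gene of the Ly49 family, was at 54.2 ± 10.4 CPM with vehicle and 60.2 ± 4.14 CPM with ACSS2i. The Ly49 genes are similar to each other in sequence, so reads may be split among them.

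**Figure D4:**
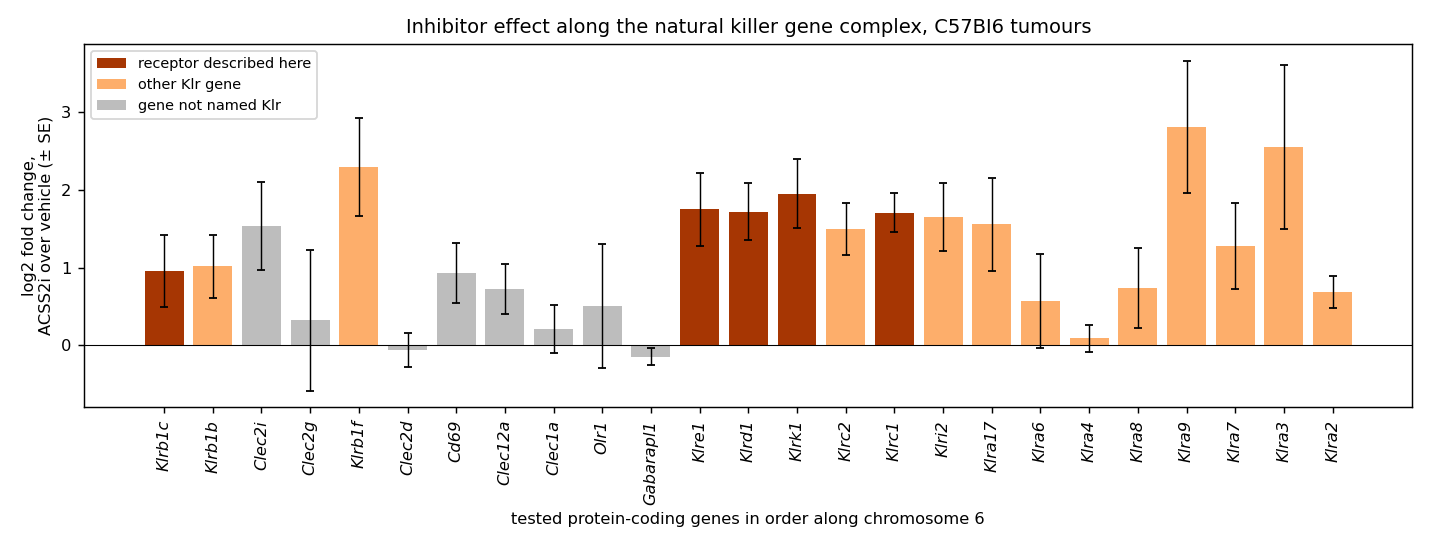
Log2 fold change of ACSS2i over vehicle in C57BI6 tumours with its SE, for the 25 tested protein-coding genes from Klrb1c to the last Klra gene, in their order on chromosome 6; bar colour gives the kind of gene. Klre1, Klrd1, Klrk1 and Klrc1 form a run of positive bars, and Klra4 lies close to 0.

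In the NGS strain the receptors were at or near the counting limit. Klre1, Klrb1c, Klrg1 and Ncr1 had no count in any of the 6 libraries. Klrc1 had 0, 1 and 1 counts with vehicle and none with ACSS2i. The 4 receptors without a count could not be tested for an inhibitor effect, and Klrc1 was under the limit in both groups. Klrk1 and Klrd1, the 2 that could be compared, did not pass by edgeR, which called 1.32% of all genes higher and 1.38% lower. Both had an unadjusted p under 0.05; DESeq2 called 1 of them, Klrk1, and limma voom 0.

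Klrk1 had 4, 0 and 0 counts with vehicle and 4, 5 and 21 with ACSS2i, or 0.851, 0 and 0 CPM and 1.15, 1.76 and 5.20 CPM. For Klrk1 and Klrd1 the groups did not overlap in CPM, as 2 of 7 receptors against 10.2% of all genes. Most of the treated Klrk1 counts came from ACSS2i 3 (log2 fold change 3.13 ± 0.89, edgeR adjusted p = 0.066). It passed without ACSS2i 1 (3.52, edgeR adjusted p = 0.0257) and was at 2.19 without ACSS2i 3 (edgeR adjusted p = 0.22). All vehicle counts are in vehicle 1, so without it the vehicle group is at 0 and the fit gives no fold (edgeR adjusted p = 0.0499). Klrd1 had 1, 0 and 0 counts with vehicle and 5, 1 and 2 with ACSS2i, a ratio of 10.2 with a 95% exact counting interval of 1.37 to 454 (edgeR adjusted p = 0.116).

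Other listed genes of the NGS libraries did not share one pattern. Among all genes, edgeR called 1.32% higher and 1.38% lower there. Fcgr4 rose (log2 fold change 1.64 ± 0.36, edgeR adjusted p = 0.0304), the 1 of 20 other receptors that passed. Ptpn6 was the 1 of 18 adapters that rose (0.68 ± 0.14, edgeR adjusted p = 0.027). Among ligands 3 of 19 rose: H2-K1 (1.91 ± 0.21, edgeR adjusted p = 0.00127), H2-D1 (0.82 ± 0.15, edgeR adjusted p = 0.0142) and Nectin2 (0.75 ± 0.18, edgeR adjusted p = 0.044). Of 14 transcription factor genes Zeb2 alone passed and rose (0.63 ± 0.16, edgeR adjusted p = 0.0485), and of 14 effector genes Ccl5 alone (2.57 ± 0.34, edgeR adjusted p = 0.00395). Of 17 cytokine and cytokine receptor genes Il2rg rose (1.98 ± 0.39, edgeR adjusted p = 0.0182) and Il15 fell by 1.42 on the log2 scale (SE 0.30, edgeR adjusted p = 0.027). Of 18 T cell markers 0 passed by edgeR, and their sum was 5.76 to 29.6 CPM with vehicle and 5.95 to 20.6 CPM with ACSS2i. In each group 8 of the 18 were at 0 throughout. These were not the same 8 in both groups, though Cd3e was at 0 in both.

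Whether the inhibitor effect differed between the strains was tested as an interaction. It could be read for Klrk1 and Klrd1 alone, and neither passed by edgeR, which called 0.0173% of all genes; 0 of these 2 had an unadjusted p under 0.05, and DESeq2 and limma voom called 0. The difference, C57BI6 minus NGS, was -1.42 ± 1.19 on the log2 scale for Klrd1 (edgeR adjusted p = 0.619) and -1.18 ± 1.04 for Klrk1 (edgeR adjusted p = 0.642). For the other 5 receptors both NGS groups were at or under the counting limit, so no inhibitor fold exists there to compare.

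The strains themselves differed in receptor RNA. In vehicle tumours 6 of 7 receptors were higher in C57BI6 than in NGS by edgeR, where 18.8% of all genes were called higher and 14% lower, and all 7 had no overlap between groups (17.5% of all genes). These genes passed the filter on low counts through their C57BI6 libraries and so were kept for being high there; nothing is read from their count against the share of all genes. Klrc1 totalled 308 counts in C57BI6 and 2 in NGS, a ratio of 27.4 (95% exact counting interval 7.53 to 227; edgeR adjusted p = 2.88e-05). At the C57BI6 level 54.8 Klrc1 counts would have been found in the NGS libraries. Klrd1 had a ratio of 21.9 (3.86 to 872; edgeR adjusted p = 0.00102) and Klrk1 of 6.45 (2.47 to 24.0; edgeR adjusted p = 0.0163). The Klrk1 ratio rests on the 4 counts of NGS vehicle 1, without which the NGS group is at 0. Its call was lost without NGS vehicle 2 or 3, at log2 fold changes of 2.26 and 2.27 (edgeR adjusted p = 0.0683 and 0.0621).

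The 4 receptors without a count in NGS vehicle were at least 6.88-fold (Klrb1c), 2.85-fold (Klre1), 2.25-fold (Klrg1) and 1.25-fold (Ncr1) higher in C57BI6 vehicle, against the limit of 3 counts over the group. The edgeR adjusted p was 0.00306, 0.0101, 0.00457 and 0.179 in that order. For Ncr1 the C57BI6 level would have given 3.74 counts in all NGS vehicle libraries together, so the depth could hardly show a difference.

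With ACSS2i 6 of 7 receptors were higher in C57BI6 by edgeR (23.1% of all genes), and 6 did not overlap (21.7% of all genes), counts that the same filter largely fixed. Klrc1 was at least 49.1-fold higher (edgeR adjusted p = 6.51e-07), Klrb1c at least 10.9-fold, Klre1 at least 7.98-fold and Klrg1 at least 5.79-fold. Klrd1 had a ratio of 7.42 (95% exact counting interval 3.73 to 17.3; edgeR adjusted p = 0.000539) and Klrk1 of 2.72 (1.88 to 4.06; edgeR adjusted p = 0.0278). The Klrk1 call was lost without NGS ACSS2i 1 or 2 or C57BI6 ACSS2i 2 or 3 (edgeR adjusted p from 0.0512 to 0.0986). Ncr1, at least 2.50-fold higher, did not pass (edgeR adjusted p = 0.074) but passed without C57BI6 ACSS2i 1, which holds no Ncr1 count (edgeR adjusted p = 0.012). These comparisons share libraries with the inhibitor comparisons.

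The low receptor RNA of the NGS strain was not shared by all NK-related or leukocyte genes. Ptprc was at 97.2 to 105 CPM in NGS vehicle and 93.9 to 125 CPM in C57BI6 vehicle. Tyrobp, encoding the adapter DAP12 that myeloid cells also use, was at 80.3 ± 19.6 CPM (n = 3) and 85.5 ± 7.95 CPM (n = 4). Klra4 was at 68.7 ± 18.8 and 54.2 ± 10.4 CPM, where the 7 receptors together summed to 0.511 ± 0.479 and 10.7 ± 1.95 CPM. Which cells carry the Klra4 RNA was not tested. Eomes, encoding a T-box factor of NK cells, was at 1.16 ± 0.882 and 1.16 ± 0.366 CPM. In contrast Gzmb, Gzmc, Tbx21, Klrc2 and Cd96 had no count in any NGS library, and Il2rg was at 2.32 ± 0.984 CPM in NGS vehicle and 21.3 ± 4.57 CPM in C57BI6 vehicle (log2 fold change 3.33 ± 0.34, edgeR adjusted p = 2.54e-06). Of 18 T cell markers 13 were higher in C57BI6 vehicle and 0 lower by edgeR, where 18.8% and 14% of all genes were called so. In NGS vehicle 8 of the 18 were at 0 throughout, so these passed the filter on low counts through C57BI6. The part of T cells in the receptor difference was not tested.

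Of 20 other listed receptor genes, 6 were higher and 1 lower in C57BI6 vehicle than in NGS vehicle. Among all genes, 18.8% and 14% were called so. Listed genes near 0 in NGS also passed the filter through C57BI6. The one that was lower was Klra17, a Ly49 relative (log2 fold change -3.12 ± 0.65, edgeR adjusted p = 0.00208). Of 19 ligand genes 6 were higher and 4 lower. H2-T23, the ligand gene of the Klrc1 and Klrd1 pair, was at 10.1 ± 2.01 CPM in NGS vehicle and 77.2 ± 10.5 CPM in C57BI6 vehicle (log2 fold change 3.07 ± 0.21, edgeR adjusted p = 4.03e-08). Raet1e, a ligand gene of the Klrk1 product, was higher (1.23 ± 0.31, edgeR adjusted p = 0.00643), and Cdh1, the cadherin ligand gene of the Klrg1 product, was lower (-1.40 ± 0.40, edgeR adjusted p = 0.0143).

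Within the 8 C57BI6 libraries the receptors varied together to unequal degrees. Over 21 pairs, Pearson's r of log2 CPM ran from 0.37 to 0.97 with a median of 0.78. With the group means removed, it ran from -0.20 to 0.88 with a median of 0.29, and 17 of 21 were positive. Klrb1c and Ncr1 were the closest pair on that measure (0.88), and Klrc1 and Klrk1 followed (0.75). The libraries are the same for all pairs.

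Over 11386 protein-coding genes, those most like the mean of the 7 receptors across the 8 C57BI6 libraries were Tmem71 (r = 0.98), Ptpn22, Ogfr, Trim34a, Casp4, Trafd1, Gbp3, Cxcl10, Nmi and Dhx58 (r from 0.95 to 0.96 after the first). Ptpn22 encodes a lymphocyte phosphatase, and Cxcl10 a chemokine induced by interferon. With group means removed, r was 0.92 for Tmem71, 0.79 for Ptpn22 and 0.72 for Cxcl10. For single receptors the closest genes were Samhd1 for Klrc1 (0.99), Ptpn22 for Klrk1 (0.99), Ly6a for Klrg1 (0.98), Aftph for Klrd1 (0.97), Casp4 for Klre1 (0.96), 2610507B11Rik for Klrb1c (0.94) and Zfp932 for Ncr1 (0.92).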

How the data were processed

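RNA of bulk tumours was read with a 3' mRNA kit (Lexogen QuantSeq), per the labels' protocols. The deposited table holds raw read counts per Ensembl gene. The submitters' processing notes name RSEM 1.2.3, DESeq2 and mm10, without roles. Of 51789 genes, 51596 matched GENCODE M21. All values in the table are whole numbers.

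Levels are CPM by library total. Genes were filtered with filterByExpr (17294 kept), scaled by TMM and tested in edgeR 4.0.16 (R 4.3.3) with the quasi-likelihood test in 1 model of all 14 libraries, two-sided, with Benjamini-Hochberg adjustment and a threshold of 0.05. DESeq2 1.42.0 and limma 3.58.1 (voom), other scaling and filters, a replicate block and leaving out libraries were alternatives. The method was tested on simulated data, with changes planted only in genes of a higher mean level than Klre1, Klrg1 and Ncr1. That test does not cover genes as low as these. Text names all 7 receptors, and from each list the genes past the threshold or up to 4 with the smallest p; likeness is Pearson's r of log2 CPM (prior count 2) over genes with a mean log2 CPM of at least 1. Members and lists were chosen with earlier results of these data known.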

Additional observations from a re-analysis of the deposited data

Results flagged for a closer look

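In C57BI6 vehicle tumours, Klrc1 stood at 6.149 CPM in replicate 1, and the next highest of the 4 libraries was at 3.646 CPM. The gap was 0.890 of the group's range, above Dixon's 95% critical value for 4 values. This was the 1 value that stood apart among 32 groups of 4 libraries examined, and chance alone sets about 1 in 20 such groups apart. The same library was among the 3 rich in skeletal muscle RNA; the part of that RNA in the value was not tested.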

How the results depend on the processing

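No direction reversed. In C57BI6 tumours, genes past the inhibitor test numbered 54, and receptors 1. These counts were 112 and 3 without the filter on low counts, 330 and 4 by DESeq2, 429 and 5 by limma voom, 234 and 4 with only the compared groups in the fit, and, in alternatives chosen after seeing the data, 157 and 4 with the newer small-count adjustment of edgeR and 22 and 1 without the 3 muscle-rich libraries. Leaving out 1 library gave 15 to 127 genes and 0 to 2 receptors.

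In NGS tumours the counts were 466 and 0: 1539 and 1 (Klrk1) by DESeq2, 27 genes by limma voom, 19 with only the compared groups, and 1110 and 1 (Klrk1) without the 2 skin-rich libraries, chosen after seeing the data, which leaves Klrk1 at 0 in the vehicle group. Leaving out 1 library gave 136 to 1766 genes and 0 to 1 receptors. The interaction called 3 genes, 7 without the filter, 272 by DESeq2 and 0 by limma voom, or 1 to 63 with 1 library left out, and 0 receptors throughout. Between strains, leaving out 1 library gave 4506 to 6609 genes and 5 to 6 receptors with vehicle, and 5960 to 7174 genes and 5 to 7 receptors with ACSS2i. The causes were not tested, and genes of the lists were not refitted under these settings.

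The replicate block left 9 genes and 0 receptors in C57BI6 tumours (Klrc1 edgeR adjusted p = 0.102) and 254 genes in NGS tumours. Whether replicate numbers pair the libraries is not settled. The correlation of same-numbered deviations ran from -0.23 to 0.23 in C57BI6 and from 0.01 to 0.19 in NGS. For different numbers it ran from -0.38 to 0.26 in C57BI6 and from -0.19 to 0.11 in NGS. In C57BI6 3 of 8 libraries, and in NGS 4 of 6, correlated best with their own number. So few correlations cannot exclude a pairing. With the block, 6 receptors were called between strains in either treatment. Klre1 lost its vehicle strain call by limma voom (adjusted p = 0.0581) and with the newer edgeR adjustment (0.0777), and Klrk1 its ACSS2i strain call by limma voom (0.0687). Depth limits the NGS libraries most, where 4 receptors had no count.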
